A study of Mus musculus with 24 samples.

Results

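The myeloid progenitors of this study were bone marrow cells of C57BL/6 mice sorted as lineage-negative, Sca1-negative and Kit-positive. They were chosen by their label, which holds for 12 of the 24 arrays of the series. The WT group consisted of mouse 5 and mouse 6 (BAP1 WT) and the KO group of mouse 7 and mouse 8 (BAP1 KO), each hybridised to 3 one-colour Cy5 arrays. The other 12 arrays held LSK cells (Kit-positive like them, but Sca1-positive) of 4 other mice, so that no mouse gave both populations. Per the labels' protocols, deletion of BAP1 was systemic and was induced by tamoxifen injection, a treatment described for the mice of both genotypes. The recombinase that was induced, the deleted exons, the age of the mice and the time after injection could not be taken from the labels.

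BAP1 is a nuclear deubiquitinase that, together with an ASXL partner, removes ubiquitin from histone H2A, the mark that Polycomb repressive complex 1 places. Deletion in all tissues leaves marrow cells exposed to changes in other organs as well as to their own loss of the enzyme. The Kit-positive, Sca1-negative fraction is a mixture of progenitors of granulocytes, monocytes, red cells, platelets, basophils and mast cells. In such bulk samples, fewer cells of a type and less RNA per cell cannot be told apart.

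The labelled cell type was checked against 18 markers of myeloid progenitors. Kit, the receptor used in the sort, had log2 values of 12.96 and 12.97 in WT and 13.07 and 12.76 in KO mice. The granule enzyme gene Mpo read 15.35 to 15.76 in the 4 mice, near the top of the arrays (15.93). Of the 18 markers, 1 passed the test and 4 had an unadjusted limma p under 0.05, beside 2028 of all 17741 genes. The one that passed, Cd34, a sialomucin of early progenitors, read 12.81 and 13.10 in WT mice and 11.87 and 11.69 in KO mice. For Cd34 both KO mice were lower, by 1.18 ± 0.18 (limma adjusted p = 0.00647), and the call was lost without mouse 8. Here and below, ± gives the SE from a moderated spread of all 8 mice, LSK mice included. Fcgr3 read 14.20 and 13.79 in WT mice and 13.46 and 12.90 in KO mice (-0.81 ± 0.28, limma adjusted p = 0.242). Markers of cells that the sort should remove ranged from dim to bright. Cd3g read 6.30 to 6.42, Pax5 6.23 to 6.45 and Cd79a 6.93 to 7.49, against a 25th percentile of probe means of 6.20. Others were bright: Nkg7 of NK cells read 12.21 to 12.84, Cd79b of B cells 10.16 to 11.13, and the neutrophil genes Camp and S100a9 13.78 to 14.11 and 13.08 to 13.75, with none past the test. The red cell genes Alas2 and Slc4a1 read 10.53 to 12.85 and 8.45 to 10.17, with the lowest value of both in KO mouse 7.

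Bap1 itself did not pass the test. Its probe read 11.54 and 11.59 in WT mice and 11.67 and 11.85 in KO mice (0.20 ± 0.18, adjusted p = 0.843), and since its place relative to the deleted part is not given, it does not check the labels. Kdm5d, on the Y chromosome, was at 8.15 in WT mouse 5 and 5.93 to 6.01 in the other 3 mice (adjusted p = 0.862), and results without mouse 5 are given below. Xist, the other sex-linked gene measured, read 7.28 and 7.51 in WT mice and 7.87 and 7.84 in KO mice (limma adjusted p = 0.395). The sex of the mice is not in the labels, and its part in the results was not tested. Arrays of a mouse correlated with a median r of 0.994 over probes, arrays of 2 mice sharing a genotype with 0.988, and WT with KO arrays with 0.980.

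Across the 17741 genes, each represented by its brightest probe, limma called 469 (2.64%) at an adjusted p under 0.05, with 161 (0.908%) higher and 308 (1.74%) lower in KO. Over all 22439 probes 533 were called (2.38%), 187 higher (0.833%) and 346 lower (1.54%). The median difference of all genes was 0.0014, with a 5th percentile of -0.54 and a 95th percentile of 0.46. The calls included 117 genes at least 2-fold higher and 199 at least 2-fold lower. In all 469 the KO mice did not overlap the WT mice, as in 20.3% of all genes with KO above WT and 20.8% with KO below. The median level in WT mice was 9.02 for called genes lower in KO, 7.34 for those higher in KO and 7.42 for all genes. In KO mice these medians were 7.56, 8.79 and 7.42. Of the lower genes 32.8% lay above 10 in WT mice, of the higher genes 10.6%, and of all genes 24.4%. The WT level is a term of the difference that sorted the genes, so these contrasts follow in part from the sorting. Leaving out mouse 5 gave 289 calls, mouse 6 gave 247 and mouse 8 gave 196. Leaving out mouse 7 gave 324, of which 194 were higher and 130 lower. In all 4 of these fits 121 of the 469 genes were called, 43 higher and 78 lower.

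**Figure D1:**
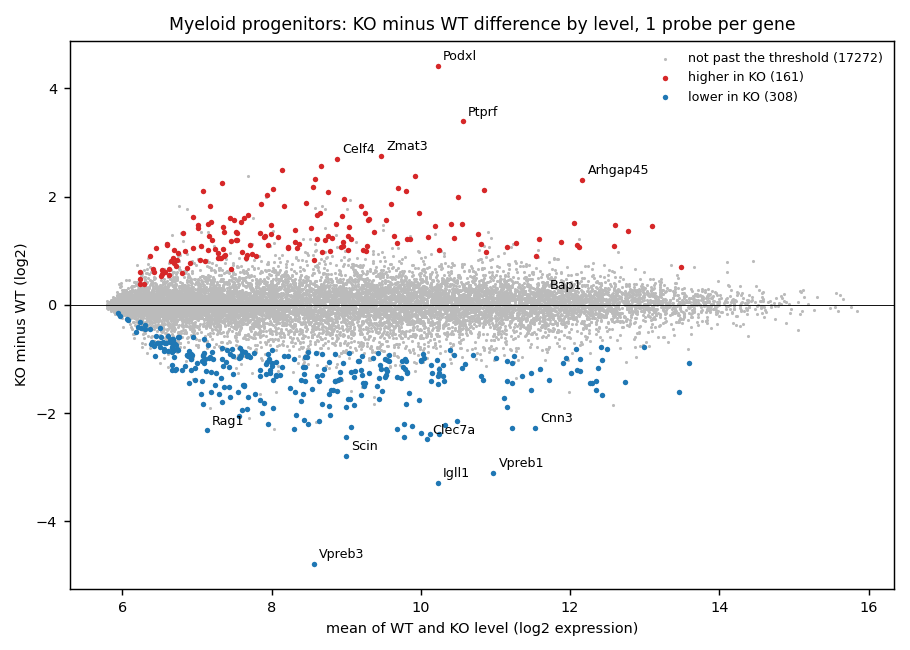
KO minus WT difference (log2) of each gene in myeloid progenitors against the mean of its WT and KO levels (log2 expression). The 161 genes higher in KO are red, the 308 lower in KO blue and the others grey; Podxl lies highest, Vpreb3 lowest, and Bap1 lies near 0.

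The 15 largest increases lay between 2.10 and 4.42 on the log2 scale. Podxl, which encodes the sialomucin podocalyxin of podocytes, endothelium and early blood cells, read 7.66 and 8.37 in WT mice and 12.03 and 12.83 in KO mice. The groups were separated by more than 3 log2 units, and the difference was 4.42 ± 0.41 (21.4-fold, SE, n = 2 mice per group, adjusted p = 0.000976). Ptprf, a receptor tyrosine phosphatase of epithelium and neurons, read 8.72 and 9.01 in WT mice and 12.43 and 12.08 in KO mice. This was 3.39 ± 0.24 (10.5-fold, adjusted p = 0.000224). The RNA-binding protein gene Celf4, best known from neurons, went from 7.51 and 7.55 to 10.07 and 10.39, a difference of 2.70 ± 0.21 (6.498-fold). A further probe rose by 2.12 (limma adjusted p = 0.00025), and a dim one read 5.83 to 5.97 in the myeloid progenitor mice. Parm1, a mucin-like membrane protein gene, read 8.58 and 8.88 in WT and 11.02 and 11.21 in KO mice (2.39 ± 0.26), and its further probe rose by 2.14.

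Genes of sugar modification and secretion were also among them. Galnt12, an enzyme that starts O-linked glycan chains, read 9.03 and 8.21 in WT mice and 10.76 and 10.80 in KO mice (2.16 ± 0.27, 4.48-fold). Sulf2, which removes sulfate groups from heparan sulfate, read 7.00 and 6.90 against 9.13 and 9.04 (2.14 ± 0.20). Lrg1, a secreted leucine-rich glycoprotein gene of granulocytes and liver, read 9.64 and 9.92 against 12.21 and 11.60 (2.12 ± 0.24, 4.36-fold). In each of these 3 both KO mice lay at least 1 log2 unit above both WT mice. Smim6, a small membrane protein gene, read 7.40 and 7.43 against 9.72 and 9.75 (2.32 ± 0.21). Zmat3, Cth, Trib3, Socs3, Socs2 and Erfe, the other members of the 15 apart from Arhgap45, are described with their pathways.

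Arhgap45 was called by the mean of the arrays, but its arrays disagreed within mice. Its level, 10.998 and 11.01 in WT and 13.15 and 13.48 in KO mice, gave a difference of 2.31 ± 0.21 (adjusted p = 0.000371). The 3 arrays of WT mouse 5, however, read 12.71, 7.39 and 12.90, and those of WT mouse 6 read 13.39, 6.28 and 13.36. The second array of both WT mice was thus low, while all 6 KO arrays lay between 12.90 and 13.55. With the median of the arrays of each mouse, an alternative added after these values were seen, the difference was 0.35 (adjusted p = 0.743). The SD between arrays of a mouse was above 1 for 63 of all genes, and Arhgap45 was the only called gene among them.

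**Figure D2:**
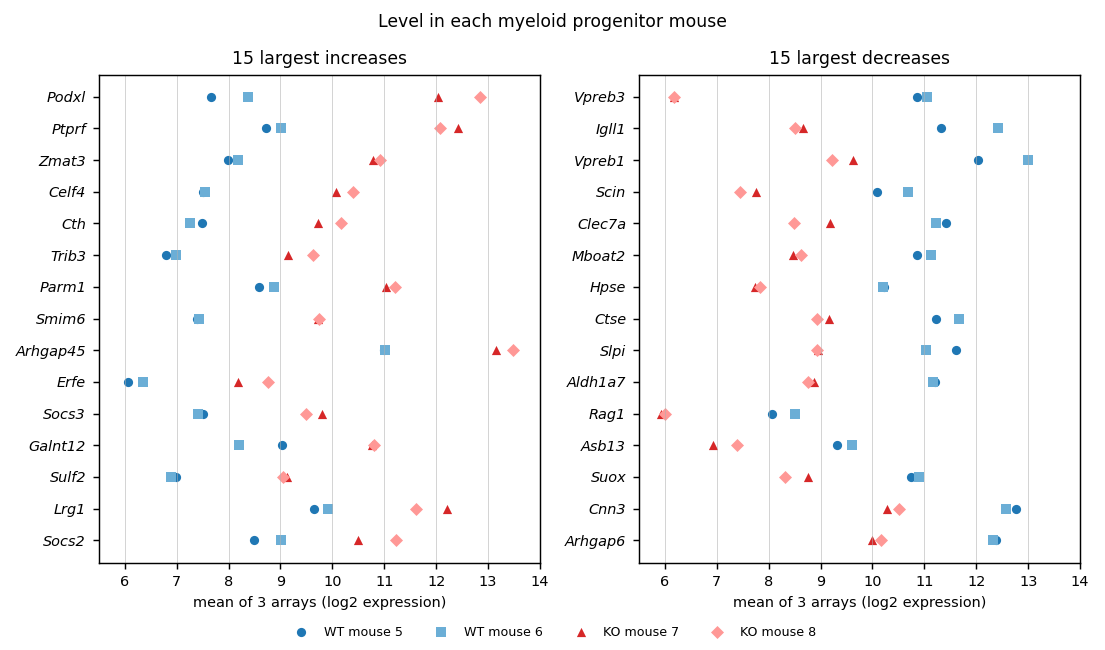
Level (log2 expression, mean of 3 arrays) of the 15 largest increases and the 15 largest decreases in each of the 4 myeloid progenitor mice, WT in blue and KO in red. No overlap of the 2 genotypes was a condition for the choice of these genes. Vpreb3 and Rag1 in KO mice lie near the low end of the arrays, and the WT means of Arhgap45 hide disagreeing arrays.

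The largest decreases lay between -4.78 and -2.27. Vpreb3, Igll1, Vpreb1, Rag1 and Cnn3, which are on the B-lineage list, and Hpse, Ctse and Slpi, which are on the protease list, are described with those lists. Scin, an actin-severing protein gene, read 10.09 and 10.68 in WT mice and 7.75 and 7.44 in KO mice (-2.79 ± 0.22, 6.92-fold lower), and its dimmer probe fell as well, by 1.04 (adjusted p = 0.00166). Clec7a, the beta-glucan receptor Dectin-1, read 11.41 and 11.23 against 9.19 and 8.49 (-2.48 ± 0.30). Mboat2, an acyltransferase of membrane lipids, read 10.86 and 11.12 against 8.46 and 8.62 (-2.45 ± 0.21). WT and KO mice did not overlap for these 3, which was a condition of the choice. Aldh1a7, an aldehyde dehydrogenase gene, read 11.20 and 11.16 against 8.87 and 8.75 (-2.37 ± 0.30, 5.17-fold lower).

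Asb13, an adaptor of a ubiquitin ligase, read 9.31 and 9.60 in WT mice and 6.92 and 7.38 in KO mice (-2.30 ± 0.23). Suox, the mitochondrial sulfite oxidase gene, read 10.75 and 10.90 against 8.76 and 8.31 (-2.29 ± 0.23, 4.89-fold lower). Arhgap6 read 12.38 and 12.33 against 9.99 and 10.17 (-2.27 ± 0.23, 4.83-fold lower). Its 4 mice formed tight pairs that were far from each other. Of the 30 extreme genes, 27 kept their calls whichever of the 4 mice was left out. The exceptions were Erfe (without mouse 5, 6 or 8, adjusted p up to 0.134), Socs3 (without mouse 6, adjusted p = 0.0566) and Socs2 (without mouse 5, adjusted p = 0.0502).

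Some B-lineage genes, read well above the low end of the arrays in these lineage-negative cells of WT mice, were lower in KO mice. The list of the pre-B cell receptor and the B lineage had 22 measured members. Of these 8 fell and 0 rose, beside 1.74% and 0.908% of all genes. The other 14 did not pass. This list and those below were chosen with earlier results of these data known, so their counts are not independent of the choice. The median of the list was -0.49, against 0.0014 for all genes. Vpreb3, a partner of the pre-B cell receptor, read 10.86 and 11.05 in WT mice and 6.17 and 6.18 in KO mice, the latter below the 25th percentile of probe means. The difference of -4.78 ± 0.26 (adjusted p = 3.91e-05) is therefore best read as a minimum. The surrogate light chain genes Igll1 and Vpreb1 changed by -3.28 ± 0.31 and -3.11 ± 0.37. Igll1 read 11.32 and 12.42 against 8.66 and 8.51, and Vpreb1 12.04 and 13.01 against 9.62 and 9.21. WT mouse 6 was about 1 log2 unit above WT mouse 5 for both.

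The recombinase gene Rag1 read 8.07 and 8.51 in WT mice and 5.93 and 6.01 in KO mice, near the lowest value of the arrays (5.66) (-2.32 ± 0.24). Ebf1, which encodes a factor needed to enter the B lineage, read 7.88 in both WT mice and 6.20 and 6.27 in KO mice (-1.64 ± 0.14). The interleukin-7 receptor gene Il7r read 8.36 and 7.64 against 6.45 and 6.33 (-1.61 ± 0.24). For all 3 the KO level was at or near the low end of the arrays, so these differences are minima. Cnn3, an actin-binding calponin gene, fell from a much higher level, from 12.76 and 12.58 to 10.28 and 10.51 (-2.27 ± 0.24), and by 2.64 on a further probe. Akap12, a scaffold of protein kinases, changed by -0.93 ± 0.18. The count of lower members was 8 without mouse 5 or mouse 6, 7 without mouse 7 and 6 without mouse 8. Il7r lost its call without mouse 8 (adjusted p = 0.0534) and Akap12 without mouse 6, 7 or 8 (up to 0.149). Of 4 markers of committed B cells, Ms4a1 fell by 0.43 ± 0.08 from 6.47 and 6.46, close to the floor, and lost its call in each of the 4 fits without a mouse (adjusted p up to 0.135). Cd79b (11.13 and 10.96 against 10.16 and 10.24, adjusted p = 0.167), Cd79a (-0.27) and Pax5 (-0.16) did not pass.

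Genes of monocytes and macrophages fell in part. Of 27 measured members 5 fell and 0 rose (median -0.35), beside 1.74% and 0.908% of all genes. Beside Clec7a these were F13a1, the clotting factor XIII subunit of monocytes, which read 13.02 and 13.01 in WT mice and 11.60 and 11.55 in KO mice (-1.44 ± 0.30). Mpeg1, a pore-forming protein gene of phagocytes, read 12.04 and 12.17 against 11.11 and 10.57 (-1.26 ± 0.23). A dimmer probe of Mpeg1 changed by -0.03 (limma adjusted p = 0.989). The macrophage marker gene Adgre1, of an adhesion receptor, read 8.83 and 8.44 against 7.87 and 7.51 (-0.94 ± 0.20). The lysosomal protease gene Ctss read 10.04 and 10.25 against 8.997 and 8.86 (-1.22 ± 0.23). The KO mice were lower in each, but Clec7a alone was called in every fit without a mouse. The count was 1 without mouse 5 or mouse 8, 2 without mouse 6 and 3 without mouse 7. Psap (-0.09), Ms4a6c (-0.41), Sirpa (0.01) and Ccr2 (0.08) did not pass.

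Lysosomal and secreted proteases and their partners fell in part. Of 32 measured members 6 fell and 1 rose (median -0.02), beside 1.74% and 0.908% of all genes. Hpse, the heparanase that cleaves heparan sulfate, read 10.23 and 10.21 in WT mice and 7.73 and 7.83 in KO mice (-2.44 ± 0.21, 5.42-fold lower). Ctse, an aspartic protease gene, read 11.22 and 11.66 against 9.17 and 8.94 (-2.39 ± 0.25). Slpi, an inhibitor of neutrophil elastase, read 11.60 and 11.04 against 8.94 and 8.92 (-2.38 ± 0.26, 5.22-fold lower). The mice of each genotype lay well apart from those of the other for these 3, which kept their calls whichever mouse was left out. The lipase gene Lipa (-1.18 ± 0.24), the hexosaminidase gene Hexa (-0.82 ± 0.19) and Ctss lost theirs in each of the 4 fits without a mouse (adjusted p up to 0.357). The membrane protease gene Mmp14 rose, from 9.64 and 9.69 to 10.71 and 11.60 (1.49 ± 0.28), and was not called when mouse 5, 6 or 8 was absent (up to 0.176). The count of lower members was 3 in each fit without 1 mouse. The membrane proteins Lamp1 (-0.05) and Lamp2 (0.03) and the protease Ctsb (-0.13) did not pass.

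Granulocyte genes mostly did not pass the test. Of 30 measured granulocyte genes 1 rose and 1 fell (median 0.16), beside 0.908% and 1.74% of all genes. Slpi was the one that fell. Lcn2, an iron-scavenging lipocalin of neutrophils, read 10.67 and 10.73 in WT mice and 11.93 and 11.76 in KO mice (1.14 ± 0.21), and lost its call in each of the 4 fits without a mouse (adjusted p up to 0.127). Prtn3 (-0.09 ± 0.20), Ctsg (-0.02 ± 0.29), Mpo (0.17 ± 0.25) and Prg2 (0.21 ± 0.22) did not pass. Mpo and Prg2 (15.38 to 15.68) read near the top of the arrays (15.93), which may limit their differences. Of 6 markers of mature neutrophils 0 passed and 3 had an unadjusted limma p under 0.05, beside 2028 of all 17741 genes. Among these markers Ngp read 9.56 and 9.76 against 10.57 and 10.62 (limma adjusted p = 0.184). Of 16 genes of dendritic cells and antigen presentation 3 fell (median 0.02), beside 1.74% of all genes. These were the transcription factor genes Tcf4 (9.15 and 9.47 against 7.74 and 7.78) and Spib (7.31 and 7.74 against 6.37 and 6.28), and the tetherin gene Bst2. The count was 2 without mouse 5 or 7, 1 without mouse 8 and 0 without mouse 6. The class II gene H2-Aa (0.44 ± 0.59) and its chaperone Cd74 (0.14 ± 0.66) did not pass, and their mice differed within each genotype. Their SE also holds the spread of LSK mice, of which the KO mice read 13.08 and 11.32 for H2-Aa.

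Some interferon-stimulated genes were lower in KO mice. Interferons act through factors that bind the interferon-stimulated response element in the promoters of antiviral genes. Of 41 measured members 9 fell and 0 rose, beside 1.74% and 0.908% of all genes, and 32 did not pass. A negative difference was read in 39 (list median -0.69), while 50.5% of all genes had a positive one. Isg15, a ubiquitin-like antiviral protein, read 8.41 and 9.70 in WT mice and 6.92 and 6.79 in KO mice (-2.20 ± 0.35, 4.59-fold lower). The interferon-induced GTPase gene Igtp read 10.37 and 11.05 against 8.998 and 8.77 (-1.83 ± 0.27). Oasl1, of the oligoadenylate synthetase family, read 8.23 and 9.20 against 7.02 and 6.92 (-1.75 ± 0.34). WT mouse 6 was the higher WT mouse for these 3. Both KO mice lay below both WT mice, as in every called gene that fell. The same held for the GTPase genes Irgm2 (9.33 and 9.89 against 8.15 and 7.91) and Gbp2 (9.39 and 9.80 against 8.20 and 8.25). Parp14, an ADP-ribosyltransferase gene, read 11.06 and 10.85 against 9.64 and 9.35, and Ifit2, which binds foreign RNA, 9.69 and 9.78 against 8.49 and 8.53.

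The calls of this list depended on which mice were used. The count of lower members was 12 without mouse 5, 3 without mouse 6, 4 without mouse 7 and 0 without mouse 8, where 0 also rose, while the median stayed between -0.82 and -0.52. None of the 9 was called in all 4 fits (adjusted p up to 0.389). The immunoproteasome subunits Psmb8 (-0.24) and Psmb9 (-0.60), the peptide transporter Tap1 (-0.26) and the GTPase Ifi47 (-0.38) were bright and did not pass.

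The promoter sequences of Isg15 and Igtp show the element that names this gene class. RefSeq promoters (assembly GRCm38.p6) were found for 30 of the 41 members, and the letters GAAA, any 2 bases and GAAA again were searched on both strands in the 250 bases before the start. They occurred in 12 of these 30 promoters, in 5 of the 8 of called members, and in 3.13% of the promoters of all 13980 array genes with a promoter entry. The members printed were chosen after their matches were known. In Isg15 (chr4:156200819-156201068, minus strand) 3 overlapping matches begin 78, 72 and 66 bases before the start, and in Igtp (chr11:58199306-58199555, plus strand) 1 begins 34 bases before it. Capitals mark the matches. A match describes the letters and is not a site.
Isg15: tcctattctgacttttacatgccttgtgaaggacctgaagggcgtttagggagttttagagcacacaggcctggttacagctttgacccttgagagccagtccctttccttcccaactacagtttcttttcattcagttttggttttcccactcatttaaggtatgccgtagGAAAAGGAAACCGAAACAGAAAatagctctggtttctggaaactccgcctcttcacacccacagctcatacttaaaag
Igtp: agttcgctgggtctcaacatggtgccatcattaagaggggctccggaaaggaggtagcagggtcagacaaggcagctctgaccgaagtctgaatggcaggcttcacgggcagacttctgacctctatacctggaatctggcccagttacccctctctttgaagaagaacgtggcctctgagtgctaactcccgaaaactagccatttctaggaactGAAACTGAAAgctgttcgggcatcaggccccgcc

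Genes of the primary cilium fell in part in KO mice. The BBSome is a coat of BBS proteins that carries membrane proteins, and the intraflagellar transport (IFT) complexes move cargo along the axoneme. Of 25 measured members 9 fell and 0 rose (median -0.51), beside 1.74% and 0.908% of all genes. Among BBSome subunits, Bbs1 read 7.54 and 7.09 in WT mice and 6.10 and 6.11 in KO mice (-1.21 ± 0.17), Bbs5 7.48 and 7.37 against 6.505 and 6.33 (-1.003 ± 0.13), and Bbs7 8.82 and 8.61 against 7.27 and 7.55 (-1.30 ± 0.20). The brightest, Bbs9, read 10.97 and 10.77 against 9.47 and 9.75 (-1.26 ± 0.22, 2.39-fold lower). All 4 were lower in both KO mice, and Bbs1 was near the floor there.

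Of the transport subunits, Ift81 read 8.13 and 7.86 in WT mice and 6.42 and 6.88 in KO mice (-1.34 ± 0.25). Ift27 read 10.75 and 10.92 against 9.46 and 9.82 (-1.19 ± 0.24), Ift80 9.67 and 9.68 against 8.79 and 8.47 (-1.05 ± 0.23), and Ift74 7.71 and 7.44 against 6.43 and 6.66 (-1.03 ± 0.17). Again the genotypes did not overlap, as in all 469 called genes. Other subunits of the same complexes did not pass, among them Ift140 (-0.01 ± 0.20), Ift20 (0.20), Ift52 (0.25) and Ift57 (-0.51). Of the 9 genes, Bbs1 and Bbs5 kept their calls whichever mouse was left out, and the count was 3 without mouse 5, 5 without mouse 6, 2 without mouse 7 and 6 without mouse 8.

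Cilium genes are known as targets of RFX factors, which bind the X-box, and this motif was searched in the same way. It occurred in 1 of the 22 members with a promoter entry and in 0.522% of the promoters of all array genes. The member with the match is Bbs7 (chr3:36613390-36613639, minus strand), where it begins 121 bases before the start and is printed in capitals.
Bbs7: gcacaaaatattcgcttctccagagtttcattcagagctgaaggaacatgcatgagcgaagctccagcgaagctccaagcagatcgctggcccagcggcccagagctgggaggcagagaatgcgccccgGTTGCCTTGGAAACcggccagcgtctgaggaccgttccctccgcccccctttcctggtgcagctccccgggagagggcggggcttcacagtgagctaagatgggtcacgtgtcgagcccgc

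**Figure D3:**
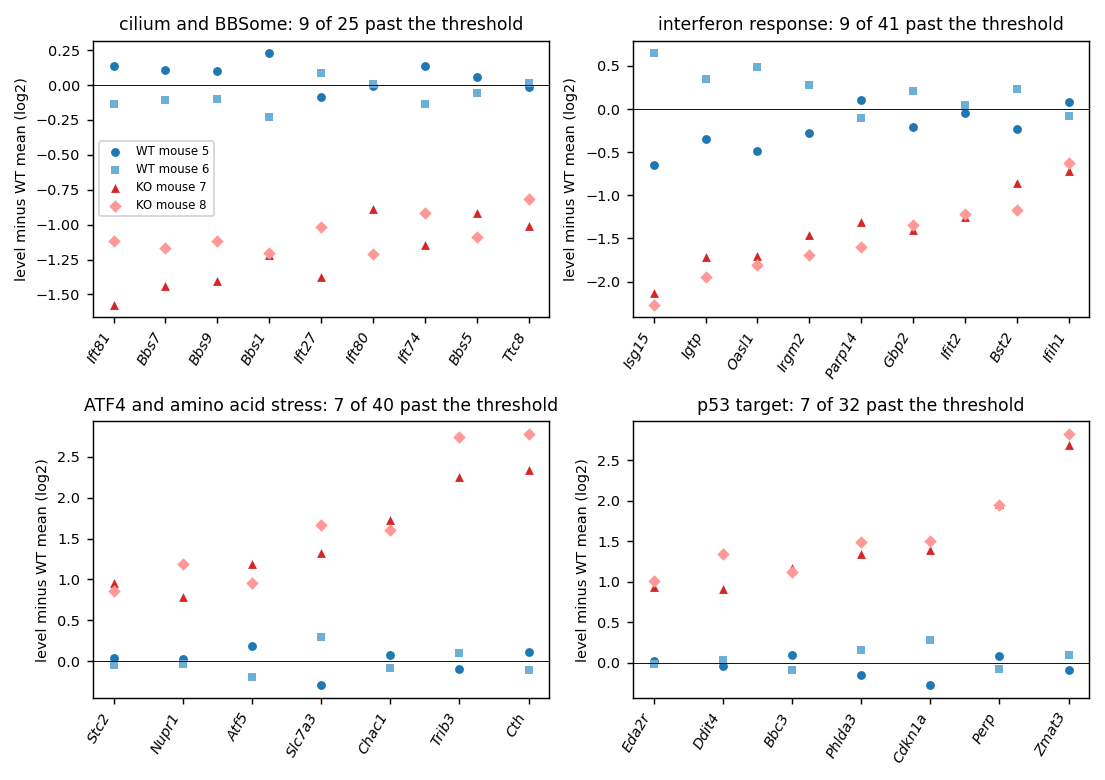
Level of each called member of 4 gene lists minus its mean in the 2 WT mice (log2), for WT mice 5 and 6 (blue) and KO mice 7 and 8 (red). Both KO mice lie below both WT mice for the 9 cilium and 9 interferon genes. They lie above both WT mice for the 7 amino acid stress genes and the 7 p53 targets. Such separation holds for every called gene.

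Of 32 measured targets of the tumour suppressor p53, 7 rose and 0 fell (list median 0.33), beside 0.908% and 1.74% of all genes. The other 25 did not pass. Zmat3, an RNA-binding zinc finger protein, read 7.99 and 8.18 in WT mice and 10.78 and 10.91 in KO mice (2.76 ± 0.29, 6.76-fold). Perp, a membrane protein of cell junctions and apoptosis, read 8.07 and 7.91 against 9.95 and 9.94 (1.96 ± 0.20). The Akt inhibitor gene Phlda3 read 6.16 and 6.46, near the floor, against 7.65 and 7.80 (1.41 ± 0.16). These 3 kept their calls whichever mouse was left out. The cell cycle inhibitor gene Cdkn1a read 9.19 and 9.75 against 10.86 and 10.98 (1.45 ± 0.29), and the pro-apoptotic Bbc3, known as PUMA, 9.20 and 9.02 against 10.27 and 10.22 (1.14 ± 0.21). A dimmer probe of Bbc3 read 5.87 to 5.92 in all 4 mice. The mTORC1 inhibitor gene Ddit4 changed by 1.13 ± 0.26 and the death receptor gene Eda2r by 0.97 ± 0.15. These 4 lost their calls in 1 or more fits without a mouse (adjusted p up to 0.439), and the count was 5 without mouse 5, 3 without mouse 6, 4 without mouse 7 and 3 without mouse 8. The p53 ligase gene Mdm2 (11.70 and 11.72 against 11.99 and 12.09, adjusted p = 0.565), Ccng1 (12.13 and 12.16 against 13.17 and 13.08, adjusted p = 0.0784) and Sesn1 (-0.60) did not pass.

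The transcription factor ATF4 drives the amino acid stress response. Of 40 measured members 7 rose and 0 fell, beside 0.908% and 1.74% of all genes, and 33 did not pass. A positive difference was read in 35 (list median 0.39), while 50.5% of all genes had one. Cth, which makes cysteine, read 7.49 and 7.26 in WT mice and 9.72 and 10.16 in KO mice (2.56 ± 0.27, 5.90-fold). The pseudokinase gene Trib3 read 6.80 and 6.99 against 9.14 and 9.63 (2.49 ± 0.27). Chac1, which breaks down glutathione, read 7.86 and 7.70 against 9.51 and 9.38 (1.66 ± 0.21, 3.17-fold). These 3 kept their calls whichever mouse was left out. The cationic amino acid transporter gene Slc7a3 (1.49 ± 0.23), the transcription factor gene Atf5 (1.07 ± 0.23), Nupr1 (0.99 ± 0.21) and the secreted glycoprotein gene Stc2 (0.90 ± 0.16) lost theirs in some fits (adjusted p up to 0.273). The count was 3 without mouse 5 or 8, 4 without mouse 6 and 5 without mouse 7. Atf4 itself (13.32 and 12.86 against 13.27 and 13.39), the serine synthesis gene Psat1 (0.40 ± 0.19) and Asns (0.74 ± 0.49), which makes asparagine, did not pass. The SE of Asns also holds the spread of LSK mice, of which the WT mice read 10.69 and 11.92.

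The letters TGATGNAA, the core of the composite C/EBP-ATF element, were searched in the same way. They occurred in 11 of the 32 members with a promoter entry, in 2 of 5 called ones and in 2.86% of the promoters of all array genes. In Chac1 (chr2:119350992-119351241, plus strand) the match lies on the opposite strand, 193 bases before the start, and is printed in capitals.
Chac1: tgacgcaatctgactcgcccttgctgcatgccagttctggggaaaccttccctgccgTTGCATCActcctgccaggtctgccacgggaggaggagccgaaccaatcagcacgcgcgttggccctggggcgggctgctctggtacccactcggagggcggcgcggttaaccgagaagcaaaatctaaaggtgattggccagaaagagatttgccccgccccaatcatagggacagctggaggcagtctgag

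Some feedback inhibitors of cytokine signalling and the kinase gene Pim1 rose. SOCS proteins and CIS are induced by STAT factors and dampen the receptors that activated them. Of 26 measured members 5 rose and 0 fell (list median 0.15), beside 0.908% and 1.74% of all genes, and 21 did not pass. Socs3 read 7.51 and 7.42 in WT mice and 9.80 and 9.49 in KO mice (2.18 ± 0.32, 4.52-fold). Socs2 read 8.498 and 9.004 against 10.48 and 11.22 (2.10 ± 0.30). Cish read 9.38 and 9.63 against 11.04 and 11.94 (1.99 ± 0.32, 3.97-fold), and KO mouse 8 was the highest for Socs2 and Cish. Pim1, a kinase that favours survival, read 12.19 and 12.01 against 13.50 and 13.41 (1.36 ± 0.16, 2.56-fold) and was called in every fit without a mouse. Cdkn1a is the other member that rose. Cish was not called when mouse 5, 6 or 8 was absent (largest adjusted p 0.0965), and the count was 2 without mouse 5 or 6, 4 without mouse 7 and 3 without mouse 8. Among other members of the list, Socs1 (0.31), Socs4 (-0.06) and Dusp6 (-0.98), chosen after their values were seen, did not pass. The cyclin genes Ccnd2 (0.10) and Ccnd3 (0.33) and the transcription factor gene Stat5b (-0.05) did not pass. The letters TTCNNNGAA, which STAT factors bind, occurred before the start of 1 of 18 members with an entry, Socs3, and in 7.60% of the promoters of all array genes. Of 31 cytokine receptor genes 1 fell, Il7r, and 0 rose (median -0.03), beside 1.74% and 0.908% of all genes.

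Of 18 measured genes of basophils and mast cells 1 rose and 1 fell (list median -0.08), beside 0.908% and 1.74% of all genes. The other 16 did not pass. The basophil protease gene Mcpt8 read 12.47 and 12.26 in WT mice and 13.77 and 13.87 in KO mice (1.46 ± 0.18, 2.75-fold). Prss34, also a basophil protease, read 11.93 and 12.02 against 10.25 and 10.23 (-1.73 ± 0.19, 3.32-fold lower). Both calls were kept whichever mouse was left out. The mast cell and basophil protease Cpa3 (-0.13) and the granule proteoglycan Srgn (0.05) did not pass.

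Megakaryocyte genes rose in part. Of 25 measured members 4 rose and 1 fell (median 0.05), beside 0.908% and 1.74% of all genes. Selp, the P-selectin of platelet granules, read 7.16 and 7.35 in WT mice and 9.38 and 8.79 in KO mice (1.83 ± 0.33). The subunits of the platelet receptor for von Willebrand factor Gp5 and Gp1bb read 11.30 and 11.31 against 12.70 and 12.92, and 8.09 and 8.15 against 9.28 and 9.49. The thrombin receptor gene F2rl2 changed by 0.65 ± 0.14. Platelet factor 4, Pf4, went the other way, from 12.99 and 12.51 to 11.35 and 11.69 (-1.23 ± 0.24). None of the 5 kept its call in all 4 fits without a mouse (adjusted p up to 0.212), and 1 member rose in each of these fits. Pf4 was called only without mouse 6. The ligand Vwf (8.75 and 9.68 against 10.47 and 10.51, adjusted p = 0.139) and the transcription factor Nfe2 (0.10) did not pass.

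Of 29 genes of red cells and heme synthesis 3 rose and 0 fell (median -0.05), beside 0.908% and 1.74% of all genes. Erfe, the erythroblast hormone that lowers hepcidin, read 6.07 and 6.35 in WT mice, near the low end of the arrays, and 8.18 and 8.76 in KO mice (2.26 ± 0.34). The Rh-associated glycoprotein gene Rhag read 7.03 and 7.30 against 8.10 and 8.43 (1.10 ± 0.18), and the actin-capping Tmod1 changed by 1.11 ± 0.24. The bright heme enzymes Alas1 (0.16) and Urod (-0.51) did not pass, nor did Alas2 (-1.62 ± 0.38, adjusted p = 0.0863). Without mouse 8 Alas2 was called lower (-2.26, adjusted p = 0.00348), and without mouse 7 it was at -0.98 (adjusted p = 0.148). The 3 risers were called without mouse 7, while 0 members were higher without mouse 5 or 8 and 1 without mouse 6. The mean log2 level of the 2 measured erythroblast markers was 11.51 and 11.12 in WT mice and 9.49 and 10.80 in KO mice. The part of erythroblasts in these values was not tested.

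Surface molecules of adhesion and junctions changed in both directions beside Podxl and Ptprf. Of 29 measured members 4 rose and 2 fell (median 0.12), beside 0.908% and 1.74% of all genes. Lsr, a lipoprotein receptor of tricellular junctions, read 7.47 and 7.07 in WT mice and 8.25 and 8.79 in KO mice (1.25 ± 0.26). A dimmer probe of Lsr changed by 0.25 (limma adjusted p = 0.438). The plasma cell and epithelial proteoglycan gene Sdc1 read 6.79 and 6.91 against 7.54 and 7.90 (0.87 ± 0.18). Of the sialomucins, Emcn read 8.00 and 7.22 against 6.16 in both KO mice (-1.45 ± 0.26), so that Emcn and Cd34 fell while Podxl, a relative of Cd34, rose. Lsr, Sdc1 and Emcn lost their calls in some fits without a mouse (adjusted p up to 0.338). Without mouse 8 none of the members was lower, and 3 were higher. Cd164 (-0.30) and the selectin ligand Selplg (-0.15) did not pass. Of 8 measured markers of endothelium and stroma 0 passed and 1 had an unadjusted limma p under 0.05, beside 2028 of all 17741 genes. The endothelial cadherin gene Cdh5 lay near the floor in all 4 mice.

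**Figure D4:**
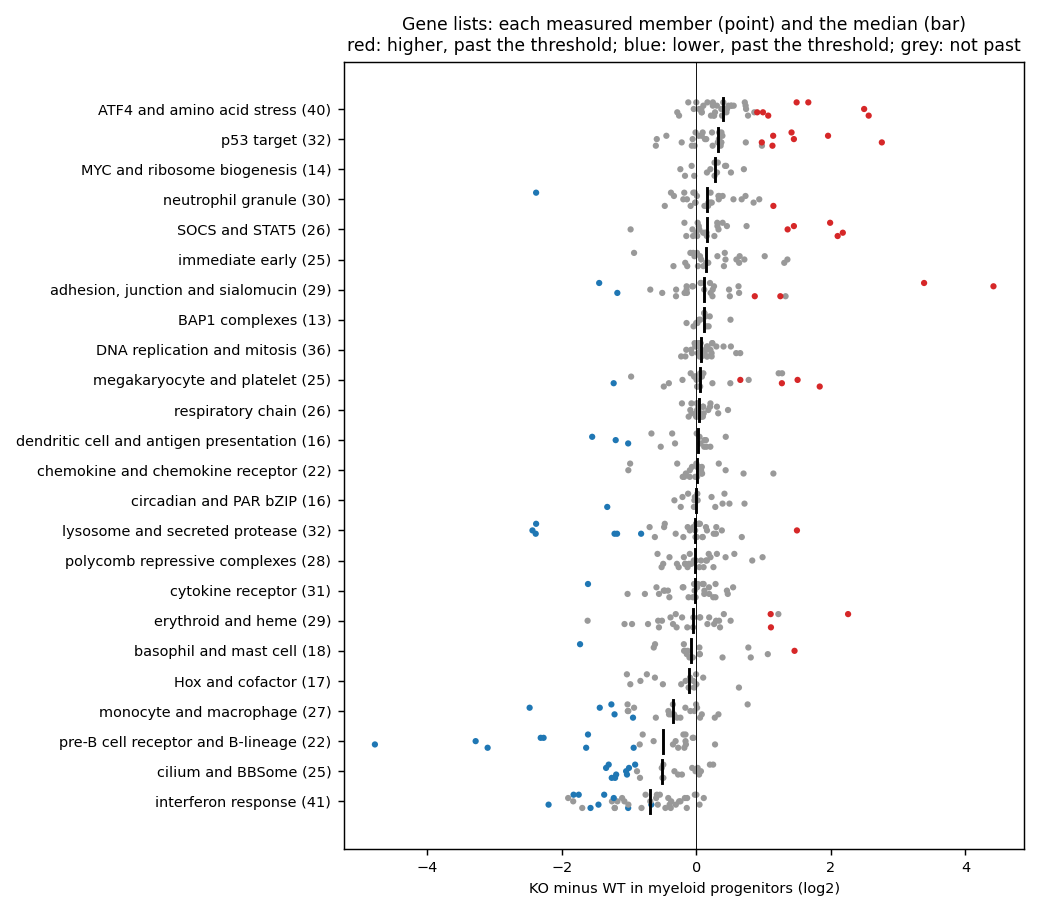
KO minus WT difference (log2) of every measured member of 24 gene lists, with the number measured in parentheses, ordered by the median (bar). Members higher and past the threshold are red, lower ones blue and the others grey; the interferon, cilium and B-lineage lists have the lowest medians (-0.69, -0.51 and -0.49) and the amino acid stress and p53 lists the highest (0.39 and 0.33).

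Several lists had no member past the threshold. Of all 17741 genes 2028 had an unadjusted limma p under 0.05. Of 13 measured partners of BAP1, 0 were called by limma and 0 had an unadjusted p under 0.05. Asxl1 (-0.04 ± 0.24), Hcfc1 (0.13 ± 0.19) and Foxk1 (-0.0037 ± 0.23) all read above 11. Of 28 Polycomb genes 0 were called and 4 had an unadjusted p under 0.05, with Ezh2 (0.21 ± 0.22), Suz12 (0.16 ± 0.28) and Eed (-0.17 ± 0.20) among the brightest. Of 17 Hox genes and cofactors 0 were called and 7 had an unadjusted p under 0.05. Hoxa7 read 10.40 and 10.74 in WT mice and 9.47 and 9.70 in KO mice (adjusted p = 0.104), Hoxa5 9.32 and 9.13 against 8.39 and 8.58 (0.236), and Meis1 11.30 and 11.24 against 12.001 and 11.81 (0.116). The KO mice lay below the WT mice for 9 and above them for 1 of the 17 genes, beside 20.8% and 20.3% of all genes.

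Of 36 genes of DNA replication and mitosis 0 were called and 0 had an unadjusted p under 0.05, and their differences lay between -0.23 and 0.65. The same counts held for 26 subunits of the respiratory chain (-0.22 to 0.47). Of 14 genes of MYC and ribosome biogenesis 0 were called and 1 had an unadjusted p under 0.05 (median 0.27). Among 25 immediate early genes 0 were called and 1 had an unadjusted p under 0.05. Egr1 read 10.81, 11.32 and 11.13 in mice 5, 6 and 7 and 13.04 in KO mouse 8. Of 22 chemokines and their receptors 0 were called and 3 had an unadjusted limma p under 0.05, beside 2028 of all 17741 genes. Of 9 LSK markers 0 were called and 5 had an unadjusted p under 0.05 (median 0.34), and without mouse 7 and mouse 8 respectively 2 and 1 were higher. Of the 3 T and NK cell markers 0 were called and 0 had an unadjusted p under 0.05. Of 16 clock genes 1 fell, the clock activator Arntl (BMAL1), beside 1.74% of all genes. It went from 10.11 and 10.25 to 8.90 and 8.81 (-1.33 ± 0.27), and its call was lost in each of the 4 fits without a mouse.

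LSK cells of 4 other mice gave a comparison that shares no mouse with the myeloid progenitors, although all arrays were normalised together. Both comparisons also came from the same fit with a shared spread per gene, so their calls were not independent. In LSK cells limma called 824 genes (4.64%), 309 higher (1.74%) and 515 lower (2.9%). Of the 161 genes higher in KO myeloid progenitors 150 also had a positive difference in LSK cells (93.2%), and of the 308 lower genes 295 had a negative one (95.8%), while 60.1% of all genes had the same sign in both. Called in the same direction in both were 67 genes on the high side, 41.6% of those called in myeloid progenitors and 21.7% of those called in LSK cells. On the low side these were 165 genes, 53.6% and 32.0%. None was called in opposite directions. Of the 30 extreme genes all had the same sign in LSK cells and 24 were called there. For 24 of the 30 the size of the difference was larger in myeloid progenitors. The 30 were chosen by their size in myeloid progenitors, so this count follows in part from the choice. Only Arhgap45 passed the test of the difference between populations, and it did not with the median of the arrays.

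**Figure D5:**
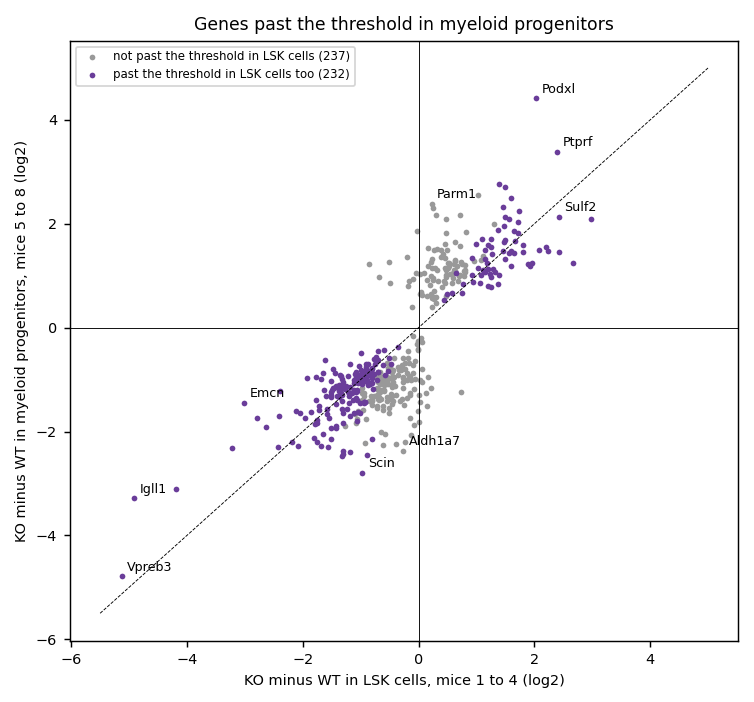
KO minus WT difference (log2) in myeloid progenitors (mice 5 to 8) against that in LSK cells (mice 1 to 4) for the 469 genes called in myeloid progenitors; the 232 called in LSK cells too are purple and the dashed line marks equal differences. Most points lie in the lower left and upper right parts of the plot; Podxl and Scin lie farther from 0 in myeloid progenitors and Emcn and Igll1 in LSK cells.

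The test of the difference between populations called 11 genes (0.062%), 8 with a higher KO effect in myeloid progenitors (0.0451%) and 3 with a lower one (0.0169%). Without mouse 6 it called 10 genes, 0 of them higher in myeloid progenitors and 10 lower, and without trend or robust estimation limma called 0, with 1292 genes at an unadjusted p under 0.05. The 5 named genes with a higher effect all lost their calls without mouse 6 (adjusted p 0.0737 to 0.102), and 4 of them, all but Fgf13, without mouse 8 (0.0504 to 0.129). Beside Arhgap45, those with a change in myeloid progenitors were Pim1 and Fgf13. Pim1 rose by 1.36 in myeloid progenitors and stood at -0.19 in LSK cells, where its 4 mice read 13.78 to 14.03 (difference between populations 1.55 ± 0.23, adjusted p = 0.0424). Fgf13, an intracellular member of the FGF family, read 6.68 and 6.38 in WT myeloid progenitors and 7.69 and 7.91 in KO (1.27 ± 0.17), against -0.51 in LSK cells. Cldn5, Fastk, Slc35d3 and Paqr5 did not pass the test in myeloid progenitors and did in LSK cells. The tight junction gene Cldn5 read 6.87 and 7.33 against 7.41 and 7.76 here (0.48 ± 0.24), against a difference of 3.60 in LSK cells. The mitochondrial RNA-binding protein gene Fastk read 8.45 and 9.001 against 8.00 and 8.05 (-0.70 ± 0.23), against 2.08. Slc35d3 (-0.07) and Paqr5 (-0.37) lay low in myeloid progenitors of both genotypes and had differences of -2.19 and -2.11 in LSK cells.

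Mice of a genotype differed little for most genes. The median gap between the WT mice was 0.14 and between the KO mice 0.11, and gaps above 1 occurred in 178 and 86 genes. The genes with the largest gaps were also read unevenly across the arrays of a mouse. Rpl8, a ribosomal protein gene, read 14.52, 5.91 and 6.03 on the 3 arrays of KO mouse 7 and 14.15 to 14.59 on those of KO mouse 8. Laptm4a read 5.98, 10.83 and 5.76 on the arrays of WT mouse 5. Meaf6 and the kinase gene Csnk1a1 were low on all 3 arrays of WT mouse 6 (5.87 to 6.36 and 5.92 to 7.30) and high on all of WT mouse 5 (11.44 to 11.62 and 12.25 to 12.45). Rrp36 read 7.11 to 11.01 in KO mouse 8 and 5.74 to 6.12 on the other 9 arrays. None of these 5 passed the test between genotypes.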

How the data were processed

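The authors deposited log2 expression values of 22439 probes on 24 arrays, with limma named, versionless, in the submitters' processing notes. Background correction and normalization steps: not given in the sources used here. Ranked values differed between arrays by at most 0.0451 on the log2 scale, so that all arrays share nearly the same distribution. Of the probes 2064 carried no gene name, and each of the 17741 genes was represented by its brightest probe.

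The 3 arrays of a mouse were averaged and the mouse was the replicate, 2 per group. The number of mice limits the precision. The 8 mouse means were analysed in R 4.3.3 by limma 3.58.1, using lmFit and a trended, robust eBayes, for 4 groups and with 4 residual degrees of freedom, two-sided p-values and Benjamini-Hochberg adjustment over all probes at 0.05. The spread of each gene, and so each SE, came from all 8 mice, LSK mice included. Tests on simulated data used 10 draws. The labels do not say whether mice were littermates.

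The members and gene lists were chosen with earlier results of these data known. Named were Bap1, the 15 largest changes in each direction that passed the threshold, had no overlap of the genotypes and had a brighter group above the median probe mean (7.20). For each list, up to 8 members past the threshold and the 4 brightest others were named. Also named were up to 5 genes in each direction of the difference between populations, the 5 with the largest gap between mice of a group, and identity markers. Alternatives changed the spread estimate, normalization, probe filter, probe rule, mice and threshold. The median of the 3 arrays of a mouse was added after seeing the data. A group mean under 6.5 was treated as dim, a level also chosen after seeing values. Promoters come from RefSeq (GRCm38.p6).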

Additional observations from a re-analysis of the deposited data

Results flagged for a closer look

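The effect of the genotype differed between myeloid progenitors and LSK cells by limma's test of the difference in 7 named genes. It was higher in myeloid progenitors by 2.12 for Slc35d3, 2.05 for Arhgap45, 1.78 for Fgf13, 1.74 for Paqr5 and 1.55 for Pim1 on the log2 scale. It was lower by that test for Cldn5 (-3.12) and Fastk (-2.78). Higher and lower refer here to the signed difference, not to its size. Slc35d3 and Paqr5 lay low in myeloid progenitors, with differences of -0.07 and -0.37 there, against -2.19 and -2.11 in LSK cells. Slc35d3, Paqr5, Cldn5 and Fastk did not pass the test in myeloid progenitors. With the median of the arrays of each mouse, added after seeing the data, Arhgap45 gave 0.05 (adjusted p = 0.988) and Fgf13 1.81 (adjusted p = 0.0503). Without mouse 6 none of the 5 genes with a higher effect was called (adjusted p 0.0737 to 0.102), while Cldn5 (0.0425) and Fastk (0.0286) were.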

How the results depend on the processing

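For genes called in myeloid progenitors (469) and for the difference between populations (11), limma on single arrays, mouse being a random block, gave 1629 and 454, and with the array number as a replicate block as well 1549 and 402. Array numbers showed no pairing: deviations of same-numbered arrays of different mice correlated with a median r of 0.02 (-0.20 to 0.21), and 4 of 12 arrays matched best an array of their own number. Without trend or robust, limma gave 288 and 0, the latter with 1292 genes at an unadjusted p under 0.05. A threshold of 0.01 gave 188 for the first, and probes above the 50th percentile 31 for the second. Leaving out 1 mouse gave 196 (without mouse 8) to 324 (without mouse 7), and 10 (without mouse 6, 0 higher and 10 lower) to 117 (without mouse 4). With 1 mouse left in a group, that mouse is assumed to vary like the others. The other alternatives gave 460 to 549 and 9 to 15, and 0 of the 469 genes changed direction in any alternative. Dim probes limit the size of differences: in 35 higher and 74 lower called genes the dimmer group lay under 6.5.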
